A study of Mus musculus with 4 samples.

Results

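The mitochondrial genome was described through its 37 genes, taken as every row of the deposited table whose gene name starts with mt-, of 52630 gene identifiers in all. They comprised 13 mRNAs, 2 rRNAs and 22 tRNAs, and all 37 lay on the mitochondrial chromosome in the GENCODE M21 annotation of mm10. AML12 cells, mouse hepatocytes kept in culture that descend from animals with a TGF-alpha transgene, had received lentivirus with a hairpin against Topors (shTopors, 2 libraries) or a control hairpin (shCtrl, 2 libraries). Topors encodes a ligase for ubiquitin and SUMO. All cells were grown with serum, insulin-transferrin-selenium supplement and dexamethasone, and were harvested on day 5 after infection with 200 µl of concentrated virus. Total RNA was depleted of ribosomal RNA with a Gold kit, whose probes also target mitochondrial rRNA, and made into stranded libraries. The sources used here do not say whether shTopors was a single hairpin or several, nor whether replicate libraries were grown as separate cultures. P-values therefore capture the library-to-library spread alone, and that spread may be technical.

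The mitochondrial genome is a small circle with no introns and almost no spacers. Each strand is transcribed as a long precursor, and the tRNAs that lie between the other genes are cut out, which frees the mRNAs and rRNAs. The heavy-strand transcript carries 28 of the 37 genes, among them both rRNAs, 14 tRNAs and 12 mRNAs. The light-strand transcript carries mt-Nd6 and 8 tRNAs. All the proteins encoded are membrane subunits of respiratory complexes I, III and IV and of the ATP synthase (complex V), and the rRNAs and tRNAs serve only the ribosomes that make them.

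Levels are given in TPM, a share of all transcripts that is scaled to gene length and to the library, so genes can be compared with each other. TPM keeps no depth, and the number of reads behind a value is unknown. Topors itself was at 4.31 and 4.65 TPM in shTopors, against 21.9 and 29.2 TPM in shCtrl, which went with the labels (log2 difference -2.27, limma adjusted p = 0.0823). All 10 hepatocyte markers examined averaged at least 1 TPM, although Alb ranged from 4.15 TPM in shTopors 1 to 402 TPM in shTopors 2. Ttr, Apob, Trf and Cebpa were lower in both shTopors libraries than in either shCtrl library, and Krt18 was higher. The groups overlapped for the other hepatocyte markers. Summed markers stood at 0.333 and 0.759 TPM in shTopors and at 1.02 and 0.815 TPM in shCtrl for stellate cells and fibroblasts. For leukocytes they stood at 0.946 and 1.38 TPM in shTopors and at 1.65 and 1.48 TPM in shCtrl, and for endothelium none exceeded 0.227 TPM. Bile duct markers summed to 1550 TPM in shTopors 1 and to 452 TPM in shTopors 2, against 510.1 and 493 TPM in shCtrl. Krt19 alone held 1396 TPM of the shTopors 1 sum. Sox9 was instead lower in both shTopors libraries, at 26.9 and 42.1 TPM, against 76.85 and 91.2 TPM in shCtrl. Krt7 overlapped between the groups, and Epcam did not exceed 0.0975 TPM. Nuclear small RNAs took from 25.8% to 30.4% of TPM in the 4 libraries, and their part in the mitochondrial values was tested only through other scalings.

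Mitochondrial genes together held 0.721% and 0.815% of all TPM in shTopors 1 and 2, against 1.56% and 1.25% in shCtrl 1 and 2. The 13 mRNAs summed to 5850 and 6556 TPM in shTopors, against 10346 and 10649 TPM in shCtrl. The means were 6203 ± 499 TPM and 10497 ± 214 TPM (SD, n = 2 each), a 1.69-fold lower sum in shTopors with no overlap between the groups. The 2 rRNAs summed to 988 and 1255 TPM in shTopors, against 4655 and 1477 TPM in shCtrl. Most of that contrast came from shCtrl 1. The 22 tRNAs summed to 376 and 341 TPM in shTopors, against 576 and 341 TPM in shCtrl, and the second libraries of both groups were nearly equal. In bulk RNA of this kind, fewer mitochondria or genome copies per cell and less RNA per genome copy cannot be told apart.

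**Figure D1:**
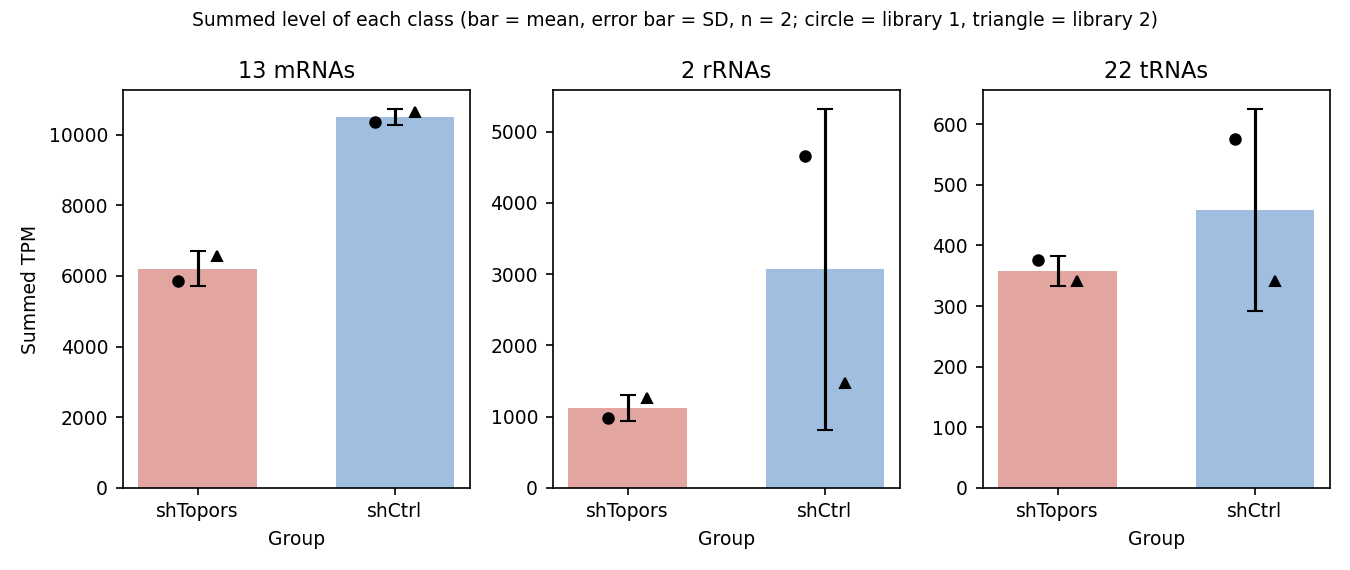
Summed TPM (vertical axis, from 0) of the 13 mRNAs, 2 rRNAs and 22 tRNAs in shTopors and shCtrl, where bars are means, error bars SD (n = 2), and circles and triangles libraries 1 and 2. The mRNA sums of 5850 and 6556 TPM in shTopors lie below both shCtrl sums, while the shCtrl rRNA bar rests on the 4655 TPM of library 1.

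Genes of the mitochondrial genome sit so close that several overlap, and part of the genome also exists as a copy in the nuclear genome. Both facts decide to which row a read can be assigned, so the sequences are shown first. The mt-Atp8 and mt-Atp6 genes, which encode subunits of the ATP synthase, share 43 bases in different reading frames. The end of mt-Atp8 (chrM:7897-7969, mm10, plus strand) and the start of mt-Atp6 (chrM:7927-7999) are given with the shared bases in capitals.
mt-Atp8: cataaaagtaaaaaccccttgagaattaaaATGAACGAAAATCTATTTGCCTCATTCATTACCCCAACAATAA
mt-Atp6: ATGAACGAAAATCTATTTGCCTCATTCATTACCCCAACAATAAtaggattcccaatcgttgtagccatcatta
On the same strand mt-Nd4l and mt-Nd4 share 7 bases and mt-Atp6 and mt-Co3 share 1. On opposite strands mt-Nd5 and mt-Nd6 share 14.

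A nuclear copy on chromosome 1 was found by aligning the mitochondrial transcripts to all GENCODE transcripts. It is annotated as 7 unprocessed pseudogenes that lie side by side on the minus strand, from Gm28439 (start 24611535) to Gm29216 (end 24616197). Each was at least 99% identical to a mitochondrial mRNA, and 5 were identical over the whole aligned stretch. These were Gm28661 with mt-Co2 (681 bases), Gm10925 with mt-Atp6 (678 bases), Gm28437 with mt-Co3 (783 bases), Gm10222 with mt-Nd4l (294 bases) and Gm28439 with the first 876 of the 1378 bases of mt-Nd4. The first 120 bases of mt-Atp6 (chrM:7927-8046, plus strand) and of Gm10925 (chr1:24614532-24614651, minus strand) show that no base tells them apart.
mt-Atp6: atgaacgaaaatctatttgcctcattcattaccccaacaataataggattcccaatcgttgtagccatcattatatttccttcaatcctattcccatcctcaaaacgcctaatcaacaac
Gm10925: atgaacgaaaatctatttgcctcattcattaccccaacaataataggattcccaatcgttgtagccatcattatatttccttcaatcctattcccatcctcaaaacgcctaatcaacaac
Gm28438 differs from mt-Nd3 by T3C over 345 aligned bases, and Gm29216 from mt-Co1 by A1066T over 483 aligned bases, counted from 1 at the first base of the mitochondrial gene. The start of mt-Nd3 (chrM:9459-9519, plus strand) and of Gm28438 (chr1:24613059-24613119, minus strand) are given with the differing base in capitals.
mt-Nd3: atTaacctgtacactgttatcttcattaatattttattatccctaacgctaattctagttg
Gm28438: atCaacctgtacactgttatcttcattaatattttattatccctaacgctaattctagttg
The mRNAs mt-Nd1, mt-Nd2, mt-Atp8, mt-Nd5, mt-Nd6 and mt-Cytb had no such near-identical copy among the annotated transcripts. The copy of mt-Co1 covers only the end of its 1545 bases. All tRNAs are shorter than the 200 aligned bases required, so copies of them could not be found. Of the tRNAs, mt-Ts1, mt-Td, mt-Tk, mt-Tg and mt-Tr lie between copied mRNAs, and the read assignment of their rows was not examined.

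Most of the TPM of each pair was listed on chromosome 1, except for mt-Co1 in all libraries and mt-Nd4 in shCtrl 2. Gm28437 was at 791 and 909 TPM in shTopors and at 1024 and 1367 TPM in shCtrl, whereas mt-Co3, a subunit of cytochrome c oxidase, was at 99.9 and 110 TPM in shTopors and at 128 and 192 TPM in shCtrl. The mitochondrial row thus held 11.2% and 10.8% of the pair in shTopors, against 11.1% and 12.3% in shCtrl. The 7 copies summed to 1939 and 2341 TPM in shTopors, against 3029 and 3402 TPM in shCtrl, a 1.5-fold lower mean in shTopors with no overlap. Reads from the identical stretches cannot be told apart by sequence, whereas reads over T3C, over A1066T or from parts of mt-Co1 and mt-Nd4 outside the copies can. The sources used here do not say how the authors placed reads that fit both. Each of these mRNAs is therefore described by its own row, by its copy, and by both combined with the copy weighted by its length.

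Complex I mRNAs without a copy were lower in both shTopors libraries. mt-Nd1 (chrM:2751-3707), the first mRNA after the rRNAs, was at 629 and 709 TPM in shTopors, against 957 and 886 TPM in shCtrl. mt-Nd2 (chrM:3914-4951) was at 279 and 286 TPM in shTopors, against 544 and 397 TPM in shCtrl. mt-Nd5 (chrM:11742-13565) was at 334 and 380.3 TPM in shTopors, against 838 and 516 TPM in shCtrl. The groups did not overlap for any of these 3, and the shCtrl libraries lay further apart from each other than the shTopors libraries did for mt-Nd2 and mt-Nd5. The log2 differences of transcript level, shTopors minus shCtrl on the log2(TPM + 1) scale, were -0.46 (SE 0.20) for mt-Nd1, -0.72 (SE 0.23) for mt-Nd2 and -0.88 (SE 0.27) for mt-Nd5. None passed the adjusted threshold of 0.05 in limma's fit over all genes, with adjusted p = 0.34, 0.252 and 0.242 in that order.

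mt-Nd6 is the only mRNA of the light-strand transcript (chrM:13552-14070, minus strand) and also encodes a complex I subunit. It was at 310.3 and 300.5 TPM in shTopors, against 855 and 343 TPM in shCtrl. Both shTopors libraries lay below both controls, but shCtrl 2 lay much closer to them than to shCtrl 1. Its log2 difference was -0.83 (SE 0.40, limma adjusted p = 0.389), and without shCtrl 1 it was -0.17. The ratio of mt-Nd6 to mt-Cytb, its neighbour on the other strand, was 0.604 and 0.523 in shTopors and 0.724 and 0.348 in shCtrl. This ratio of single genes overlapped between the groups.

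mt-Cytb (ENSMUSG00000064370, chrM:14145-15288) encodes cytochrome b, the mitochondrially encoded subunit of complex III. It was at 514 and 574 TPM in shTopors, against 1181 and 987 TPM in shCtrl. The means were 544 ± 42.8 TPM and 1084 ± 137 TPM (SD, n = 2 each), a 1.99-fold lower level in shTopors, and the groups lay far apart. Its log2 difference of -0.99 (SE 0.21) had the smallest p of the mRNAs without a near-identical copy, with a limma adjusted p = 0.162. With a library left out that difference stayed between -1.12 and -0.86.

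All 3 mRNAs of complex IV lie partly or wholly in the copied region. mt-Co1 (ENSMUSG00000064351, chrM:5328-6872), the catalytic subunit of cytochrome c oxidase and the most abundant member in every library, was at 3598 and 4046 TPM in shTopors, against 5668 and 6845 TPM in shCtrl. It alone made up 61.5% and 61.7% of the mRNA sum in shTopors, against 54.8% and 64.3% in shCtrl. The log2 difference was -0.71 (SE 0.18, limma adjusted p = 0.208), and -0.70 with Gm29216 added. Gm29216 itself was at 430.3 and 609 TPM in shTopors, against 738 and 827 TPM in shCtrl, and did not overlap. mt-Co2 was at 43.1 and 102 TPM in shTopors, against 83.8 and 82.9 TPM in shCtrl, so here the groups overlapped and shTopors 2 was the highest library. Its copy Gm28661 did not overlap, at 254 and 289 TPM in shTopors, against 494 and 504 TPM in shCtrl. Combined, mt-Co2 and Gm28661 were at 296 and 389 TPM in shTopors, against 576 and 584 TPM in shCtrl. That moved the log2 difference of mt-Co2 to -0.77 (SE 0.22, limma adjusted p = 0.224), against -0.33 (SE 0.40) for the mitochondrial row alone, which turned to 0.28 without shTopors 1. Combined, mt-Co3 and Gm28437 were at 889 and 1018 TPM in shTopors, against 1151 and 1557 TPM in shCtrl, with a log2 difference of -0.49 (SE 0.22, limma adjusted p = 0.366).

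**Figure D2:**
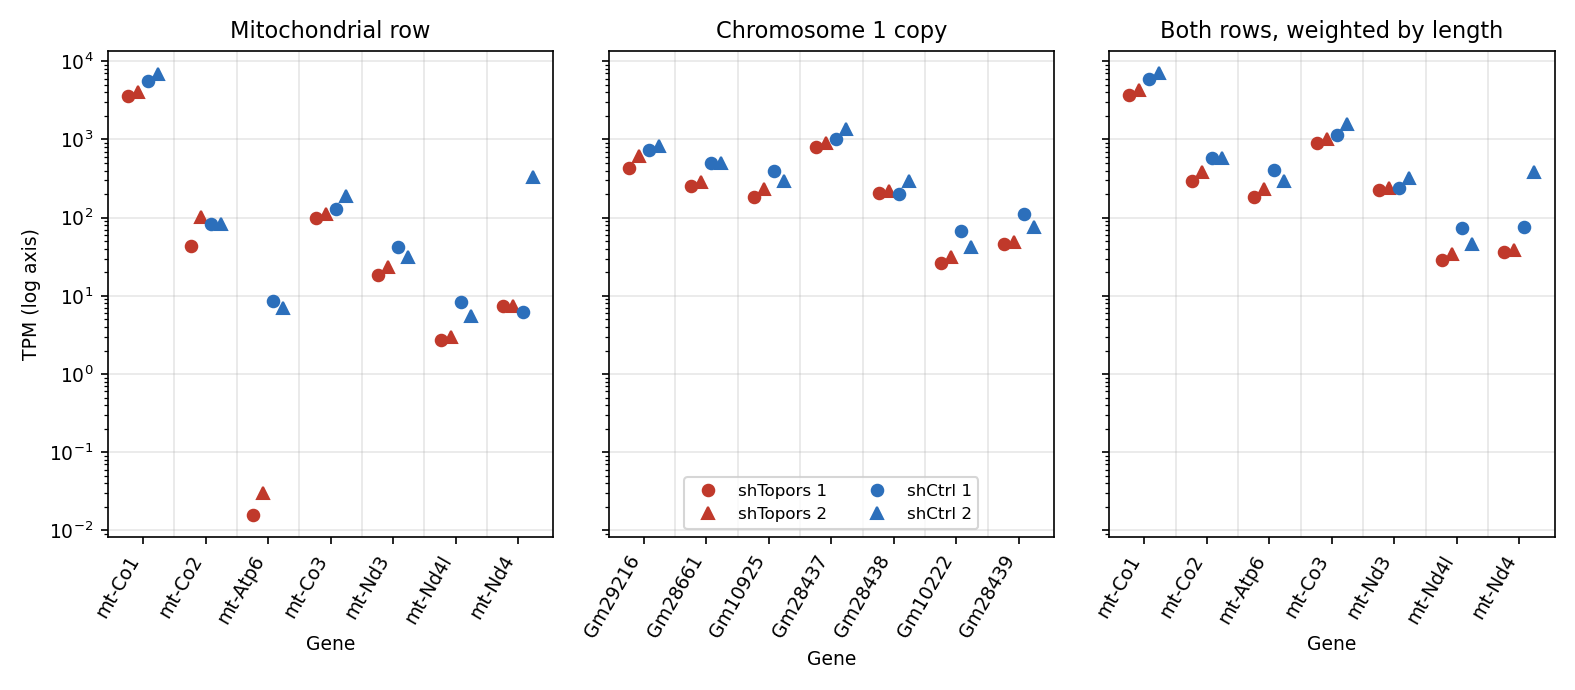
TPM (log axis) of 7 mitochondrial mRNAs, of their near-identical chromosome 1 copies, and of both combined with the copy weighted by length, in each shTopors and shCtrl library. The mt-Atp6 row lies below 0.03 TPM in both shTopors libraries, while Gm10925 lies between 185 and 395 TPM in all 4.

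The mt-Atp6 row (ENSMUSG00000064357, chrM:7927-8607) encodes the proton-channel subunit a of the ATP synthase and was the only member that passed the adjusted threshold. It was listed at 0.0157 and 0.0298 TPM in shTopors, against 8.57 and 7.03 TPM in shCtrl. The log2 difference was -3.10 (SE 0.29, limma adjusted p = 0.031), and the row reached the tested set only through its shCtrl values. The size of this difference depends on the pseudocount, and was -6.00 with 0.1 TPM and -1.35 with 5 TPM in place of 1 TPM. Its identical copy Gm10925 was at 185 and 233 TPM in shTopors, against 395 and 293 TPM in shCtrl. The mitochondrial row held 0.00849% and 0.0128% of the pair in shTopors, against 2.12% and 2.34% in shCtrl, so nearly all TPM of this sequence stood on the chromosome 1 row in every library. Combined, the pair was at 184 and 232 TPM in shTopors, against 402 and 299 TPM in shCtrl, 1.68-fold lower in the mean. The log2 difference of the combined value was -0.74 (SE 0.25), and its limma adjusted p = 0.262 did not pass. The call of the single row was also lost without shCtrl 1 (adjusted p = 0.174), without shCtrl 2 (adjusted p = 0.325), under quantile normalization (adjusted p = 0.121) or scaling by median ratios (adjusted p = 0.11), with nuclear genes other than small RNAs as the base (adjusted p = 0.065) and when low genes were not filtered out (adjusted p = 0.37). The log2 difference of the row lay between -3.55 and -2.93 in these settings, all with 1 TPM added. With shTopors at 0.0157 and 0.0298 TPM, that difference follows mainly the shCtrl values. The narrow range therefore does not show that its size was stable, and other pseudocounts or merging moved it far more.

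mt-Atp8, which overlaps mt-Atp6, encodes a small membrane subunit of the same enzyme and has no near-identical copy among the annotated transcripts. Its last 43 bases, shared with mt-Atp6, are part of Gm10925. The search required 200 aligned bases, and mt-Atp8 has 204. The chromosome 1 sequence between Gm10925 and Gm28661, where a copy of the rest would lie, was not examined here. The mt-Atp8 row is thus not known to be free of a copy. mt-Atp8 was at 14.2 and 13.4 TPM in shTopors, against 25.0 and 25.6 TPM in shCtrl. Replicates nearly coincided in both groups, and the groups did not overlap. Its log2 difference was -0.83 (SE 0.26, limma adjusted p = 0.243), close to the -0.74 of the combined mt-Atp6 value.

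The remaining complex I mRNAs lie in the copied region and differed in how much rested on single libraries. mt-Nd3 was at 18.6 and 23.4 TPM in shTopors, against 41.6 and 31.1 TPM in shCtrl, while its copy Gm28438 was at 207 and 221 TPM in shTopors, against 199 and 294 TPM in shCtrl. The mitochondrial row did not overlap between the groups, but the copy did, and the combined log2 difference was -0.25 (SE 0.24). mt-Nd4l was at 2.70 and 2.97 TPM in shTopors, against 8.24 and 5.47 TPM in shCtrl, while its copy Gm10222 was at 26.3 and 31.7 TPM in shTopors, against 67.1 and 41.7 TPM in shCtrl. Neither row overlapped between the groups. Combined, mt-Nd4l and Gm10222 were at 28.7 and 34.3 TPM in shTopors, against 74.7 and 46.7 TPM in shCtrl. The combined log2 difference was -0.89 (SE 0.31, limma adjusted p = 0.266). mt-Nd4 was at 7.5 and 7.45 TPM in shTopors, against 6.26 and 330.3 TPM in shCtrl. shCtrl 1 thus lay below both shTopors libraries and shCtrl 2 far above every other library, although its neighbours mt-Nd4l and mt-Nd5 were lower in shCtrl 2 than in shCtrl 1. The log2 difference of mt-Nd4 was -2.53 (SE 1.48) and turned to 0.22 without shCtrl 2. The copy Gm28439 was at 45.5 and 49.5 TPM in shTopors, against 111 and 75.7 TPM in shCtrl, and did not overlap. Combined, mt-Nd4 and Gm28439 were at 36.4 and 38.9 TPM in shTopors, against 76.9 and 378 TPM in shCtrl. The combined values did not overlap either, although shCtrl 2 again stood far above the rest. Their log2 difference was -2.15 (SE 0.65, limma adjusted p = 0.233), and with a library left out it lay between -3.29 and -1.01.

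**Figure D3:**
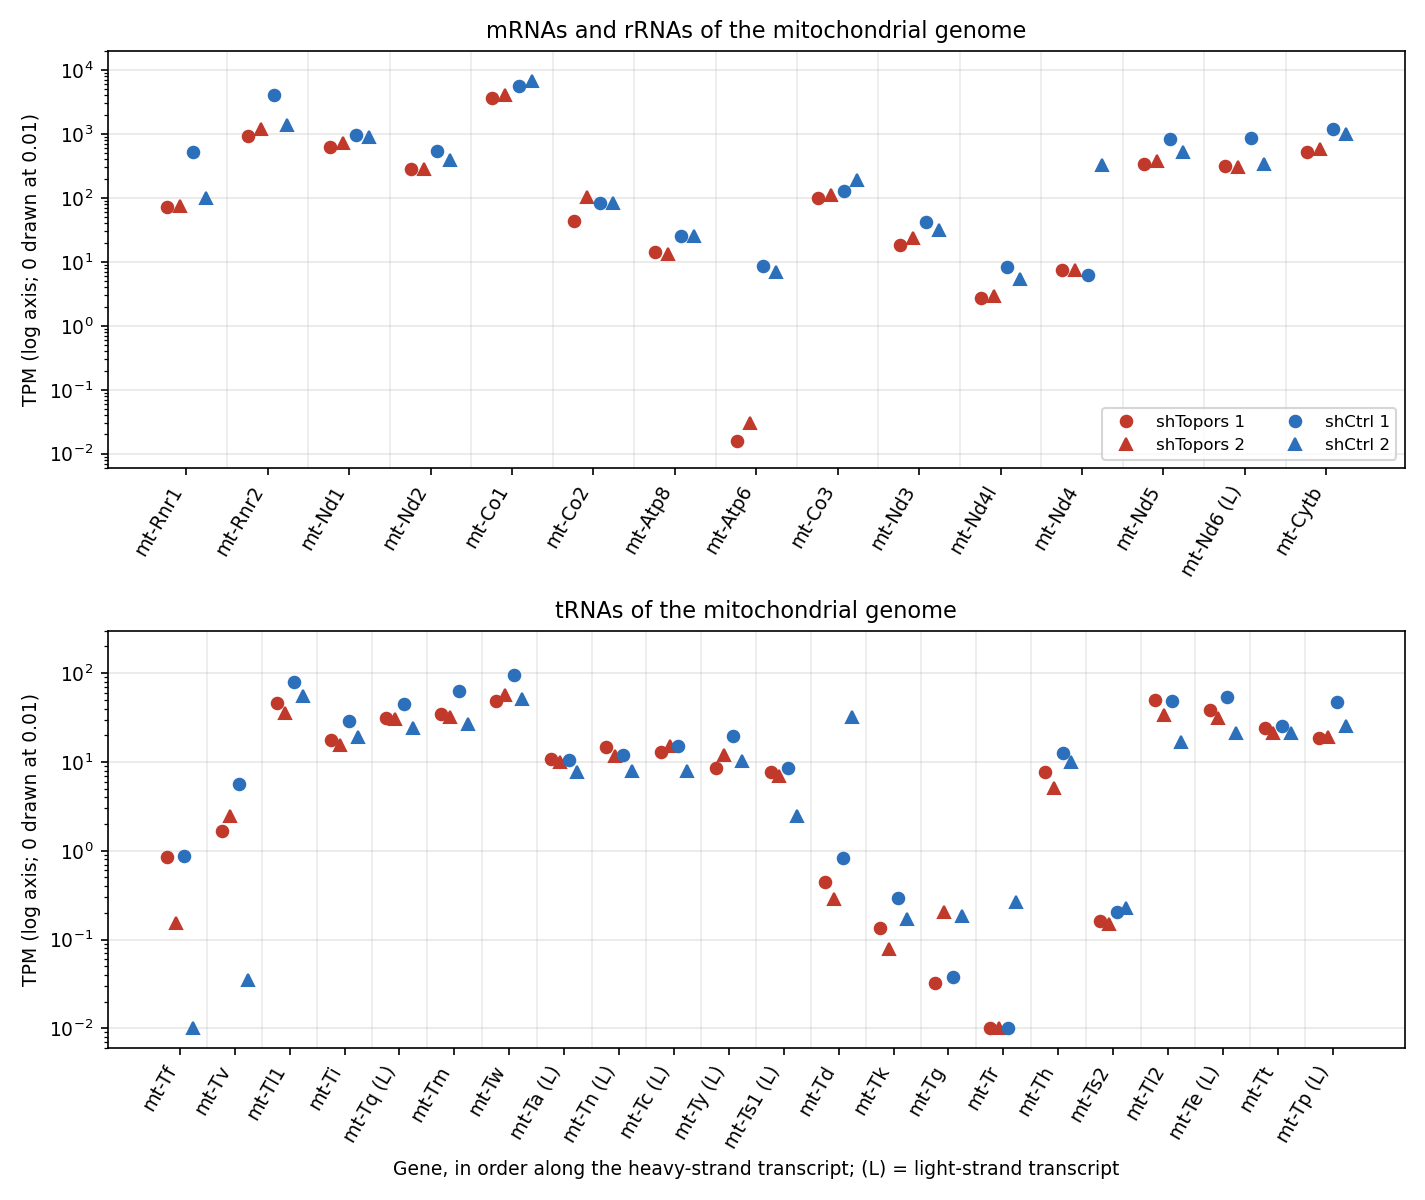
TPM (log axis, with 0 drawn at 0.01) of the 37 mitochondrial genes in each shTopors and shCtrl library, mRNAs and rRNAs above and tRNAs below, in the order of the genome. The single shCtrl 2 values of 330.3 TPM for mt-Nd4 and 32.5 TPM for mt-Td stand apart from the other 3 libraries.

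The rRNAs are targets of the depletion kit, so their values need not follow their level in the cell. mt-Rnr2, the 16S rRNA of the large ribosomal subunit (chrM:1094-2675), was at 916 and 1179 TPM in shTopors, against 4133 and 1379 TPM in shCtrl. mt-Rnr1, the 12S rRNA of the small subunit (chrM:70-1024), was at 71.5 and 75.6 TPM in shTopors, against 523 and 98 TPM in shCtrl. shCtrl 1 stood apart for both, and shCtrl 2 was close to the shTopors libraries. The log2 differences were -1.20 (SE 0.47, limma adjusted p = 0.309) for mt-Rnr2 and -1.61 (SE 0.67, limma adjusted p = 0.335) for mt-Rnr1. Without shCtrl 1 both were -0.41, and without shCtrl 2 they were -1.99 and -2.81 in the same order. Depletion efficiency was not measured, and its part in these values was not tested.

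The tRNAs shared no direction. Mature tRNAs are short and heavily modified, and libraries of this kind capture them poorly. Of 22, 17 averaged at least 1 TPM and were tested, and none passed the adjusted threshold in limma's fit. At an unadjusted p under 0.05, 2 were lower, mt-Tl1 and mt-Tp, and none higher. Among the 17, 10 had a log2 difference below 0 and 7 above it, with a median of -0.09 that lay near the -0.18 of all genes tested. With scaling by median ratios or quantile normalization 8 lay below 0 and 9 above it. The groups overlapped for 12 of the 17. Without shCtrl 1, 11 tRNAs were above 0, and without shCtrl 2, 16 of 17 were below it, so the direction rested on which control library was used.

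The heavy-strand tRNAs that lie beside mRNAs differed among themselves. mt-Tl1, a leucine tRNA between mt-Rnr2 and mt-Nd1, was at 46.3 and 35.6 TPM in shTopors, against 80.2 and 55.9 TPM in shCtrl, and its log2 difference was -0.71 (SE 0.29, limma adjusted p = 0.328). mt-Tw, for tryptophan, was at 48.7 and 56.8 TPM in shTopors, against 96.6 and 51.0 TPM in shCtrl. mt-Tm, for methionine, was at 34.9 and 31.7 TPM in shTopors, against 63.3 and 26.8 TPM in shCtrl. Of these 3, only mt-Tl1 kept its groups apart. mt-Ti, for isoleucine, was at 17.6 and 15.7 TPM in shTopors, against 29.0 and 19.0 TPM in shCtrl. mt-Th, for histidine, was at 7.73 and 5.13 TPM in shTopors, against 12.6 and 9.89 TPM in shCtrl. These last pairs also did not overlap. mt-Tt, for threonine, was at 24.3 and 21.1 TPM in shTopors, against 25.6 and 21.3 TPM in shCtrl. mt-Tl2, the other leucine tRNA, was at 49.6 and 34.2 TPM in shTopors, against 48.7 and 16.9 TPM in shCtrl. mt-Tv, the valine tRNA between the rRNAs, was at 1.66 and 2.44 TPM in shTopors, against 5.68 and 0.0346 TPM in shCtrl, so the controls enclosed the shTopors libraries for mt-Tv and the groups overlapped for all of these 3. mt-Td, for aspartate, was at 0.449 and 0.284 TPM in shTopors, against 0.819 and 32.5 TPM in shCtrl. It reached the tested set only through shCtrl 2, and its log2 difference of -2.52 (SE 1.15) was -0.42 without that library. It lies between the copied mRNAs mt-Co1 and mt-Co2, and whether it has a nuclear copy was not examined.

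The light-strand tRNAs overlapped between the groups, with mt-Tp as the exception. mt-Tp, for proline, was at 18.9 and 19.4 TPM in shTopors, against 47.3 and 25.2 TPM in shCtrl, with a log2 difference of -0.82 (SE 0.34, limma adjusted p = 0.334). mt-Te, for glutamate, was at 38.6 and 31.6 TPM in shTopors, against 53.7 and 21.3 TPM in shCtrl. mt-Tq, for glutamine, was at 31.3 and 30.7 TPM in shTopors, against 44.9 and 24.2 TPM in shCtrl. For both of them shCtrl 1 was the highest and shCtrl 2 the lowest library. The cluster of mt-Ta, mt-Tn, mt-Tc and mt-Ty, which surrounds the origin of light-strand replication, overlapped between the groups throughout. mt-Ta, for alanine, was at 10.9 and 10.0 TPM in shTopors, against 10.6 and 7.69 TPM in shCtrl. mt-Tn, for asparagine, was at 14.6 and 11.6 TPM in shTopors, against 12 and 7.83 TPM in shCtrl. Their groups overlapped because shTopors 2 lay below shCtrl 1. mt-Tc, for cysteine, was at 13 and 15.1 TPM in shTopors, against 15.0 and 8 TPM in shCtrl. mt-Ty, for tyrosine, was at 8.57 and 12.1 TPM in shTopors, against 19.6 and 10.2 TPM in shCtrl. mt-Ts1, a serine tRNA, was at 7.68 and 7.01 TPM in shTopors, against 8.52 and 2.47 TPM in shCtrl, and again the controls lay on either side.

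The other 5 tRNAs, mt-Tf, mt-Tk, mt-Tg, mt-Tr and mt-Ts2, averaged under 1 TPM and were not tested. No library exceeded 0.872 TPM for any of them. mt-Tr was listed at 0 in both shTopors libraries and in shCtrl 1.

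Over the members tested, 1 of 32 was called lower and none higher by limma, where 0.0296% of the 13509 genes tested were called lower, 0.0074% higher and 0.037% in either direction. The groups did not overlap, with shTopors lower, for 11 of 13 mRNAs, 2 of 2 rRNAs and 5 of 17 tRNAs, against 35.2% of all genes tested. No member lay higher in both shTopors libraries, against 14.6% of all genes. At an unadjusted p under 0.05, 9 mRNAs, 2 rRNAs and 2 tRNAs were lower and no member higher, against 10.7% of all genes lower and 3.98% higher. The 13 mRNAs had a median log2 difference of -0.83, against -0.18 for all genes, and all 13 lay below that all-gene value. With the copies merged into their mitochondrial rows no member passed in limma's fit, against 0.0222% of 13502 genes called lower and 0.00741% higher. At an unadjusted p under 0.05, 14 members were then lower and none higher, against 10.7% and 3.97% of genes. The median of the 13 mRNAs was then -0.77, or -0.59 relative to all genes, and without shCtrl 1 it was -0.56, or -0.30 relative to all genes. The calls changed with the libraries used. With shTopors 1 or shTopors 2 left out they included mt-Atp6, whose sequence stood almost wholly on Gm10925. They also included mt-Nd4 and mt-Td, which were high in shCtrl 2 alone. Without shTopors 1, 8 members were called lower, including mt-Rnr1, mt-Rnr2, mt-Co1, mt-Nd5 and mt-Cytb, where 6.67% of all genes were. Without shTopors 2, 13 members were called lower, where 10.9% of all genes were. Without shCtrl 1 only mt-Nd4 passed, and without shCtrl 2 no member did.

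**Figure D4:**
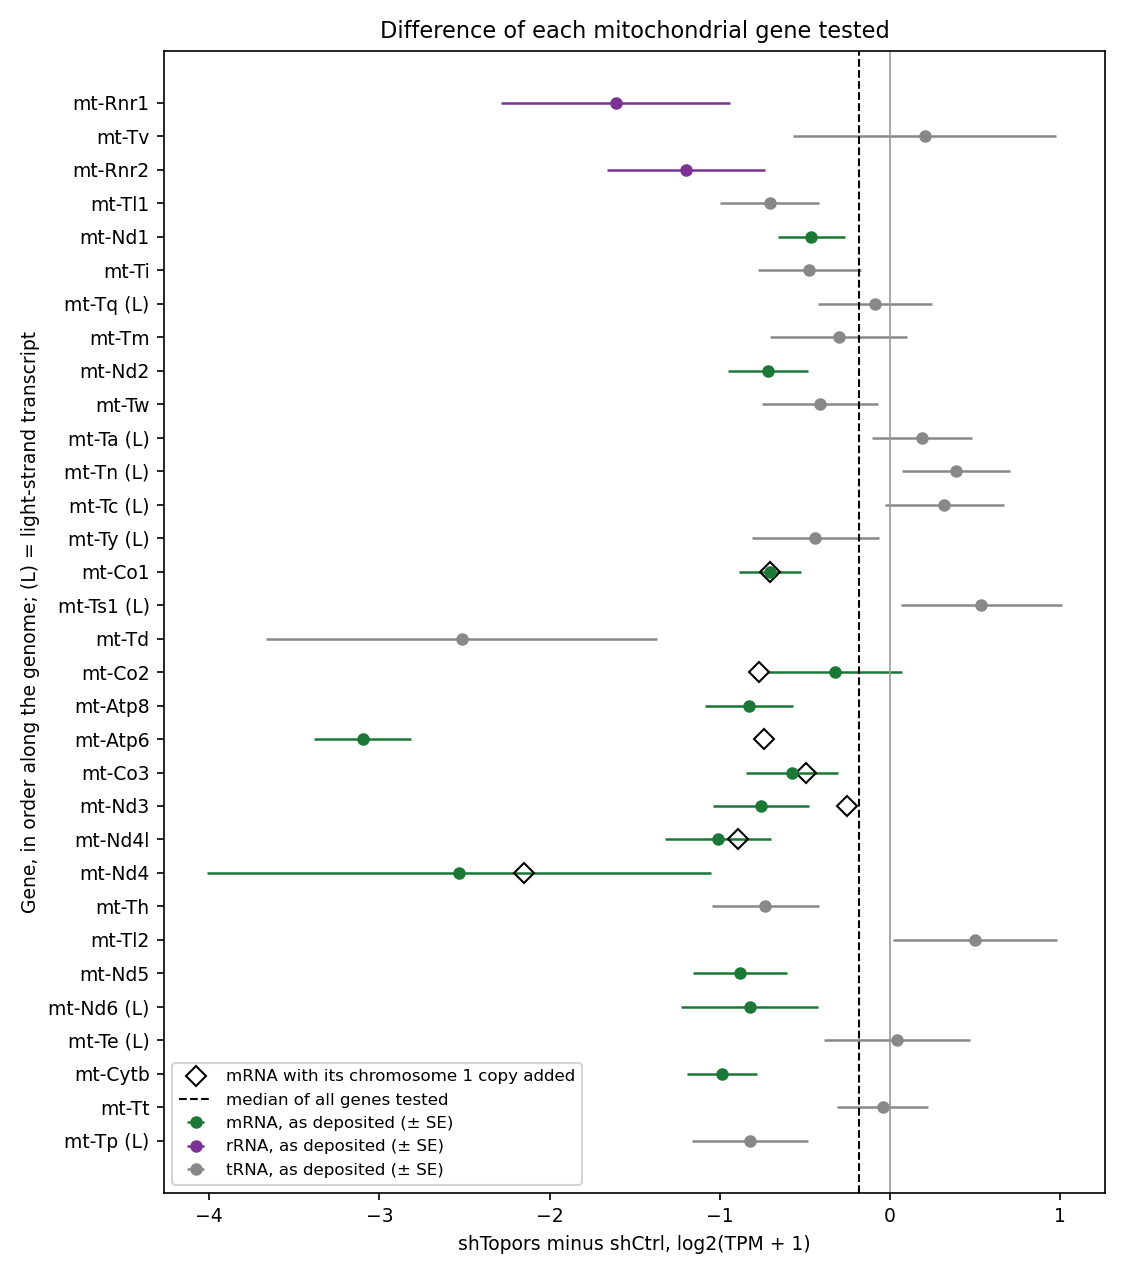
Log2 difference, shTopors minus shCtrl on the log2(TPM + 1) scale, with its SE, for the 32 members tested in genome order, with open diamonds for the 7 mRNAs after their chromosome 1 copy was added. All 13 mRNAs lie left of the dashed all-gene median of -0.18, tRNAs lie on both sides, and mt-Atp6 moves to -0.74 with its copy.

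Along the heavy-strand transcript, mRNAs further from its start tended to show larger differences. This order held for mRNAs only. The rRNAs at the start had larger differences, -1.61 for mt-Rnr1 and -1.20 for mt-Rnr2. Near the end, the tRNA mt-Th was at -0.73, mt-Tl2 at 0.50 and mt-Tt at -0.04. Among the 6 heavy-strand mRNAs without a near-identical copy over most of their length, mt-Nd1 was at -0.46, mt-Nd2 at -0.72, mt-Co1 at -0.71, mt-Atp8 at -0.83, mt-Nd5 at -0.88 and mt-Cytb at -0.99. From mt-Nd2 onwards, neighbours in that order differed by less than the SE of either. Across these 6 genes the rank correlation of position with log2 difference was -0.94, and with a library left out it lay between -1 and -0.77. Over all 12 heavy-strand mRNAs it was -0.65, and -0.64 with the copies merged. Across those 12 it was weaker without shCtrl 1, at -0.48, and without shCtrl 2, at -0.31. These are descriptions across genes that share the same 4 libraries, and genes are not independent replicates. Within a library, which removes any scaling between libraries, the ratio of mt-Cytb to mt-Nd1 was 0.817 and 0.81 in shTopors, against 1.23 and 1.11 in shCtrl, and the groups did not overlap. Likewise the ratio of mt-Nd5 to mt-Nd1 was 0.532 and 0.536 in shTopors, against 0.876 and 0.583 in shCtrl. Nearer to mt-Nd1, the ratio of mt-Nd2 to it was 0.443 and 0.403 in shTopors, against 0.569 and 0.448 in shCtrl. That of mt-Co1 was 5.72 and 5.70 in shTopors, against 5.92 and 7.73 in shCtrl, and neither overlapped. All these ratios share mt-Nd1, which had the smallest difference of the 6 genes, so they do not by themselves show a trend with distance. For the rRNAs the ratios to mt-Nd1 overlapped between the groups. That of mt-Rnr1 was 0.114 and 0.107 in shTopors, against 0.546 and 0.111 in shCtrl. That of mt-Rnr2 was 1.46 and 1.66 in shTopors, against 4.32 and 1.56 in shCtrl. The ratios and the 6 genes were chosen after the values were seen. Whether mt-Atp8, among these 6 genes, has an unannotated copy was not examined.

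The nuclear genes that copy, transcribe and process the mitochondrial genome were examined beside it, as 6 lists of 98 symbols of which 95 were tested. In limma's fit none was called in either direction, against 0.037% of all genes. At an unadjusted p under 0.05, 1 was higher and 2 were lower, against 3.98% and 10.7% of all genes. Of the 95, 66 lay above the median difference of all genes and 29 below it. Without shTopors 2, 5 were called, namely Uqcc2 as higher and Uqcc1, Twnk, Ppargc1a and Nsun3 as lower, where 5.09% of all genes were called higher and 10.9% lower. The single shTopors library was then the one with low Alb and high Krt19, whose part in these calls was not tested. Polrmt, Tfam and Lrpprc are given for their roles, Uqcc1 and Nsun3 only as called without shTopors 2, and the other named genes as having the smallest p of their list.

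Among the 11 genes of mitochondrial transcription, the median log2 difference was -0.13, against -0.18 for all genes. Polrmt, the mitochondrial RNA polymerase, was at 10.2 and 7.99 TPM in shTopors, against 9.57 and 8.23 TPM in shCtrl. Tfam, which packages the genome and opens its promoters, was at 14.0 and 16.2 TPM in shTopors, against 12.4 and 19.6 TPM in shCtrl. The controls enclosed the shTopors libraries for Tfam, and the groups overlapped for Polrmt. Mrpl12, a ribosomal protein with the smallest p of this list, was at 119 and 81.8 TPM in shTopors, against 86.1 and 67.9 TPM in shCtrl. Among 24 genes of RNA processing and tRNA modification the median was 0.02, and Tbrg4, a FASTK-family RNA-binding protein, was at 74 and 62.2 TPM in shTopors, against 45.2 and 54.3 TPM in shCtrl. Among 11 genes of mRNA stability and decay the median was -0.09. Rexo2, an oligoribonuclease, was at 77 and 87.2 TPM in shTopors, against 65.5 and 57.6 TPM in shCtrl. Lrpprc, which with Slirp stabilises mitochondrial mRNAs, was at 53.6 and 60.4 TPM in shTopors, against 41 and 53.1 TPM in shCtrl.

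Among 17 genes of DNA copying and nucleotide supply the median was -0.06. Twnk, the replicative helicase, was at 19.7 and 32.0 TPM in shTopors, against 42.6 and 45.2 TPM in shCtrl, with a log2 difference of -0.78 (SE 0.30, limma adjusted p = 0.31). Among 7 tested nuclear regulators the median was -0.10. Ppargc1a, a coactivator of mitochondrial gene programmes, was at 0.336 and 0.867 TPM in shTopors, against 1.5 and 2.56 TPM in shCtrl, with a log2 difference of -0.92 (SE 0.34, limma adjusted p = 0.291). It reached the tested set only through its shCtrl values. Among 25 genes for insertion and assembly of the encoded proteins the median was -0.03. Uqcc2, an assembly factor for cytochrome b, was at 242 and 154 TPM in shTopors, against 119 and 125 TPM in shCtrl, with a log2 difference of 0.66 (SE 0.28, limma adjusted p = 0.336). The groups did not overlap for 34 of the 95 genes tested, among them Twnk, Ppargc1a, Tbrg4, Rexo2, Lrpprc and Uqcc2. Of the 95 genes tested, 18 were thus lower and 16 higher in shTopors without overlap, against 35.2% lower and 14.6% higher among all genes tested.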

How the data were processed

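The deposited table gives TPM per gene and library, as the authors computed them. Per the submitters' processing notes, they used the build mm10 and the tools StringTie, HISAT2, HTSeq and DESeq2, without versions or roles. Which program wrote the TPM, and with which strand setting, is not stated there. The table held 52630 identifiers (3 on 2 rows, summed), of which 52397, with all 37 members, matched GENCODE M21, the source of coordinates and sequences. The members and lists were chosen with earlier results of these data known. Every mRNA, rRNA and tRNA averaging at least 1 TPM is named, as are each nuclear list's gene of smallest p and every copy reaching 1 TPM; exceptions are marked.

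Log2(TPM + 1) was tested across the 13509 genes averaging at least 1 TPM by limma 3.58.1 (R 4.3.3, variance trend on), shTopors minus shCtrl, with Benjamini-Hochberg adjustment and calls under 0.05. This scale understates changes of low genes. Class sums and lists received no test. TPM keeps no depth, so no counting interval was computed. Copies were found with blastn 2.17.0 among annotated transcripts (at least 90% identity over 200 bases; near-identical from 99%), and merging them, the copy weighted by length, was chosen after seeing the data. Alternatives were other pseudocounts, filters, scalings and variance models, a fit blocked by replicate number, and leaving out each library in turn. The fit was tested on simulated data.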

Additional observations from a re-analysis of the deposited data

How the results depend on the processing

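The median log2 difference of the 13 mRNAs ranged from -0.95 to -0.68 when 1 choice was changed at a time, and differed from -0.83 by less than the spread between libraries (SD 0.179). With copies merged and shCtrl 1 left out it was -0.56. Relative to the median of all genes, which moved from -0.18 to -0.05 with scaling by median ratios and to -0.01 under quantile normalization, it was -0.63 and -0.75. Among all genes, 5 were called with all libraries, 0 with no filter on low values, and 1 each with a filter at 5 TPM, with scaling by median ratios, under quantile normalization and with nuclear genes other than small RNAs as the base. In these same settings 0 mitochondrial genes were called, against 1 with all libraries, and 0 also with the copies merged. mt-Atp6 was left out by the 5 TPM filter. With a library left out the counts ranged from 0 to 2166 for all genes, from 0 to 13 for mitochondrial genes and from 0 to 5 for the nuclear lists. The lone library was then assumed to vary like the other group.

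The mRNA sum in shTopors was 0.591 of that in shCtrl, and 0.653 with scaling by median ratios. Leaving out mt-Atp8, mt-Atp6, mt-Co3, mt-Nd4l and mt-Nd4, which overlap another mRNA on the same strand, gave 0.60. mt-Nd5 and mt-Nd6, which overlap on opposite strands, were kept in that sum. Adding 6 copies gave 0.609 and merging 7 copies 0.606. Of 366 single-gene values under alternatives, 330 kept direction and side of the threshold, 26 newly passed, 7 no longer passed and 3 changed sign. The last were mt-Co2 without shTopors 1, with a range from -0.94 to 0.28 over libraries left out, mt-Nd4 without shCtrl 2, with a range from -5.29 to 0.22, and Gm28438 without shCtrl 2, with a range from -0.46 to 0.11. These 366 values came from 25 genes, the 13 mRNAs, 2 rRNAs, 7 copies and, of the tRNAs, only mt-Tl1, mt-Tp and mt-Td. The filters, variance models and replicate block cannot change a log2 difference, and merging cannot for genes without a copy. Of the 25 genes only mt-Atp6 was called with all libraries, so for the others the same side meant not called. The count of 330 is thus no measure of stability. Among the tRNAs not followed, some changed sign with a library left out and others did not. For example, mt-Tv ranged from -1.14 to 1.55 and mt-Ti from -0.77 to -0.18. The causes were not tested.

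The replicate numbers in the titles are not said to pair the libraries, and the deviations of same-numbered libraries correlated at 0.199 across genes. With a replicate block 33 genes were called, among them 1 mitochondrial gene, mt-Atp6 (limma adjusted p = 0.0295), and 0 mitochondrial genes once the copies were merged. TPM keeps no depth, so counting error could not be set beside values such as 0.0157 TPM for mt-Atp6.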

Other observations

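Less similar nuclear copies were also listed. Of 8 further pseudogenes with at least 90% identity to a mitochondrial mRNA over at least 200 bases, Gm13340 on chromosome 2, which is 97.6% identical to mt-Co1 over 1545 bases, was at 2.35 and 2.18 TPM in shTopors, against 4.40 and 4.45 TPM in shCtrl. Its groups did not overlap, as those of mt-Co1 did not. Gm11512, a copy of mt-Co1 on chromosome 11, was at 0.143 and 0.256 TPM in shTopors, against 0.248 and 0.414 TPM in shCtrl. Gm13341, a copy of mt-Co2 on chromosome 2, was at 0.330 and 0.315 TPM in shTopors, against 0.241 and 0.140 TPM in shCtrl, the opposite order. Gm13339, a copy of mt-Nd2, was at 0.179 and 0.167 TPM in shTopors, against 0.210 and 0.128 TPM in shCtrl. The other 4 did not exceed 0.0523 TPM in any library, and Gm11410 and Gm11408, copies of mt-Cytb and mt-Nd6 on chromosome 4, were listed at 0 in all 4.

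The share of a pair that stood on the mitochondrial row differed between pairs, also where the copy covers nearly the whole mRNA without a mismatch. For mt-Nd4l and Gm10222 it was 9.32% and 8.57% in shTopors, against 10.9% and 11.6% in shCtrl. For mt-Co2 and Gm28661 it was 14.5% and 26.0% in shTopors, against 14.5% and 14.1% in shCtrl. For mt-Nd4 and Gm28439 it was 14.1% and 13.1% in shTopors, against 5.34% and 81.4% in shCtrl. That copy covers only 876 of the 1378 bases of mt-Nd4, so the remaining bases can add reads to the mitochondrial row alone.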
